A study of Homo sapiens with 4 samples.

Results

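The matrix metalloproteinases (MMPs), the ADAMs, the ADAMTS proteases and their tissue inhibitors (TIMPs) were examined in HepG2 and Huh7 cells before and after sonodynamic therapy (SDT). Members were the protein-coding genes whose whole symbol is MMP, ADAM, ADAMTS or TIMP followed by digits, with a letter suffix allowed. The rule found 66 genes among 19951 protein-coding genes, comprising 23 MMPs, 20 ADAMs, 19 ADAMTS genes and 4 TIMPs. The cells are established lines grown from human liver tumors, each a culture of tumor cells without the stroma of a liver. In SDT, ultrasound activates a sensitizer carried into the cells, here hematoporphyrin monomethyl ether (HMME) loaded together with the drug lonidamine (LND) into gas-filled (C3F8) nanobubbles and exposed to low-frequency ultrasound. Group A was HepG2 and group C Huh7 before the treatment, group B was HepG2 and group D Huh7 after it, and each of these 4 groups gave a library of its own, 1 per group. The labels name no treatment for groups A and C, and the dose and time of the treated cultures behind the RNA are not given in the sources used here.

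Each member was read as listed or not listed in each of the 2 comparisons, group B vs. A in HepG2 cells and group D vs. C in Huh7 cells. A gene was listed when its identifier stood under any GO term of that comparison, which means that the authors had called its mRNA differentially expressed at an adjusted p-value under 0.05 and that it carried a GO annotation. The tables hold no expression level, no fold change and no direction, so it is not known whether a listed gene rose or fell, and no value per sample can be given. An unlisted gene may not have passed the threshold, may not have been expressed, or may have lacked an annotation. With 1 library per group, a listing has no replicate check, no test was made here, and the depth behind each call is unknown. In such bulk RNA, fewer cells that express a gene and less of its RNA per cell cannot be told apart. The identity of the lines could not be checked against the levels of liver markers for the same reason.

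These families together cut the matrix and the surface proteins around a cell. MMPs are zinc-dependent enzymes, made as inactive precursors, that degrade collagens, gelatin, elastin and other matrix proteins. ADAMs sit in the membrane and release the outer domains of growth factors, cytokines and adhesion proteins, and ADAMTS enzymes are secreted relatives that process procollagens, cartilage proteoglycans and von Willebrand factor. TIMPs bind the active site of these enzymes and block it. In liver, the balance of MMPs and TIMPs is known for its part in the turnover of scar matrix and in the invasion of hepatocellular carcinoma.

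Of the 66 members, 30 (45.5%) were listed in HepG2 cells, where 23.9% of all protein-coding genes were listed. In Huh7 cells, 24 members (36.4%) were listed, and the share of all protein-coding genes was 21.9%. Both lists held 15 members (22.7%), against 11.4% of all protein-coding genes. The members in common were 50% of the HepG2 members and 62.5% of the Huh7 members, whereas the genes in common were 47.7% and 52.2% of the whole lists. A further 15 members were listed in HepG2 cells alone, 9 in Huh7 cells alone, and 27 in neither. The member share was therefore above the background share in each cell line. These are descriptions of the lists, and the differences from the background were not tested.

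**Figure D1:**
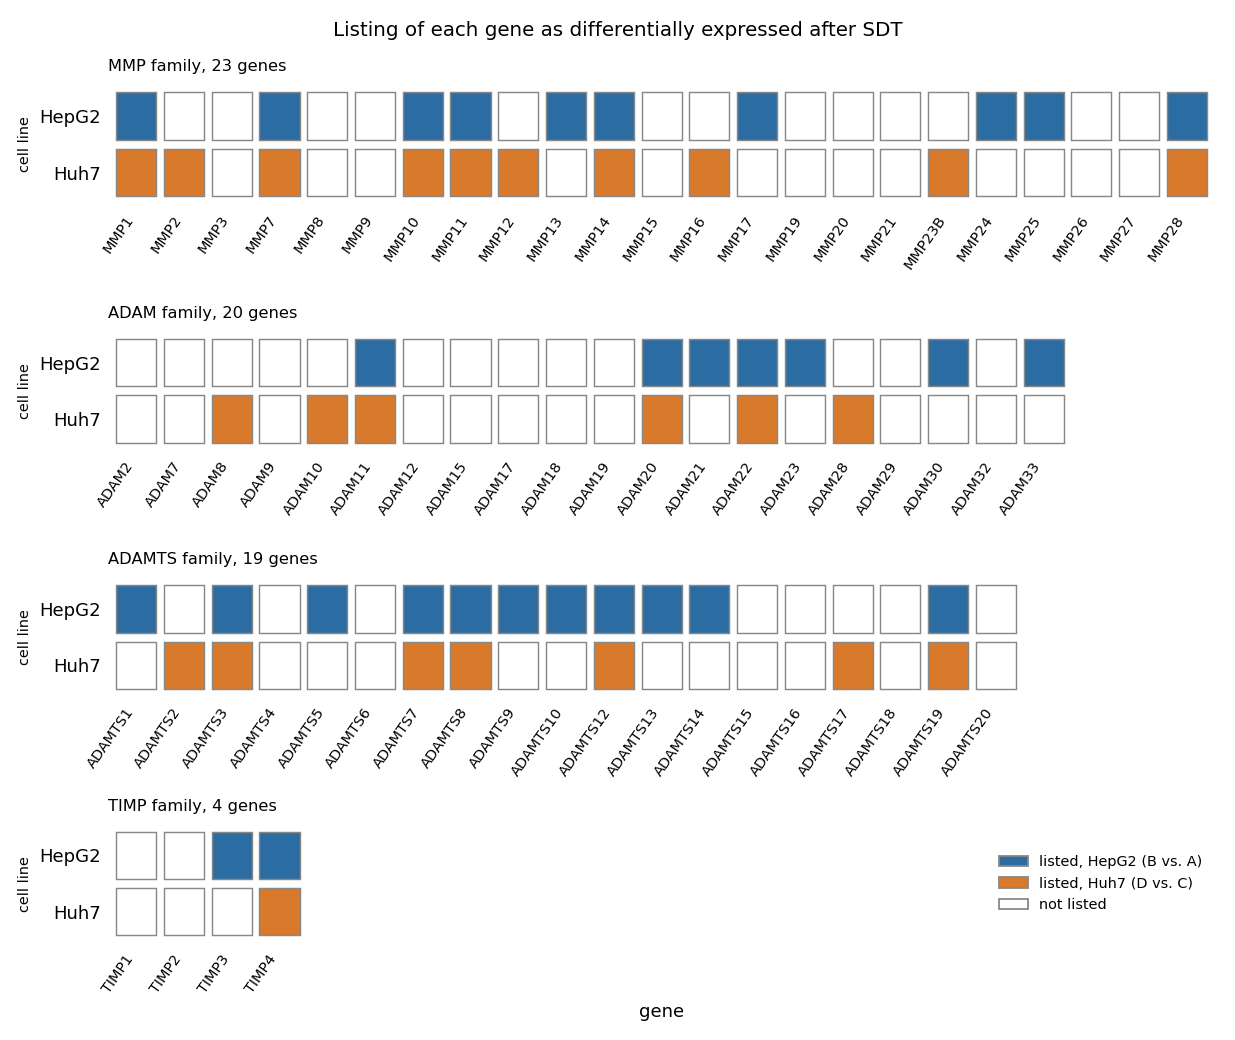
Each square is a gene (horizontal axis, by family) in a cell line (vertical axis), filled where the gene was listed as differentially expressed after SDT and open where it was not. Both squares are filled for 15 of the 66 genes and both are open for 27.

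Split by family, the ADAMTS genes had the highest share in HepG2 cells, with 11 of 19 listed (57.9%), and 7 of 19 (36.8%) in Huh7 cells. The MMPs were equally frequent in both lines at 10 of 23 (43.5%), with 6 genes in both lists and 4 in the list of each line alone. The ADAMs had the lowest share among the enzymes, at 35% in HepG2 cells (7 of 20) and 30% in Huh7 cells (6 of 20). Of the 4 TIMPs, the HepG2 list held 2 and the Huh7 list 1. Each of these shares lay above the background of its line, although the TIMP value for Huh7 cells rests on 1 gene.

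**Figure D2:**
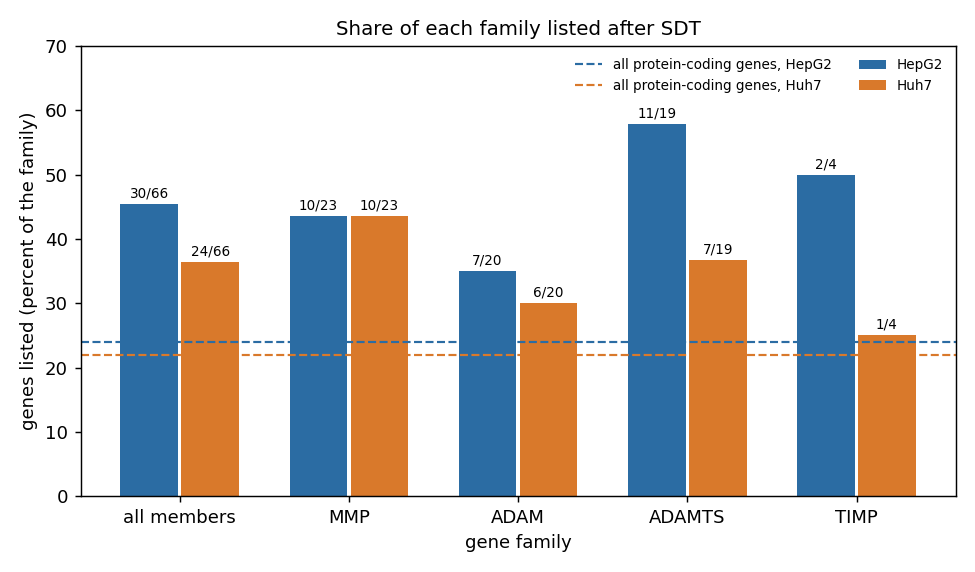
Bars give the percent of each family listed in HepG2 cells and Huh7 cells, with listed and total genes above each bar, and dashed lines give the share of all protein-coding genes (23.9% and 21.9%). The HepG2 bar stands highest for the ADAMTS family at 57.9%, and the Huh7 bar for the MMPs at 43.5%.

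Promoters are shown for 2 members listed in both lines, MMP7 and MMP10, which lie in the MMP cluster of chromosome 11. They were chosen as the first listed members, by family and number, whose promoter held the AP-1 motif TGANTCA, the site that FOS and JUN proteins recognise and that is well known from MMP promoters. The sequences are from RefSeq (GRCh38.p14), 250 bases before to 50 bases after the gene start, written 5′ to 3′ on the minus strand of the genome, for MMP7 at chr11:102530698-102530997 and for MMP10 at chr11:102780579-102780878. Capitals mark the AP-1 motif.
MMP7: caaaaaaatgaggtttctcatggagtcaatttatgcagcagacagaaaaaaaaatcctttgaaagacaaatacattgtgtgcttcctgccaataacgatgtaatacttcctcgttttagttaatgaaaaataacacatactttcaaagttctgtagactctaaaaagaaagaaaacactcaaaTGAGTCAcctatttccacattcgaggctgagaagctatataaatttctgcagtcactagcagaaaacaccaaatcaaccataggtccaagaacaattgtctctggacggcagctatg
MMP10: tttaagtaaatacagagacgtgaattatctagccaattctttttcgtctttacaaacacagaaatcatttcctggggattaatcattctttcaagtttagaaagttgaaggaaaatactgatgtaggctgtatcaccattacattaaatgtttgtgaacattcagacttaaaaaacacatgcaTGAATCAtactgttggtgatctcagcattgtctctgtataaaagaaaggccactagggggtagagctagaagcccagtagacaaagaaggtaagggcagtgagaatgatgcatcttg

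In both promoters the motif began 67 bases before the gene start, and a TATAAA box began 30 bases before it in MMP7 and 31 bases before it in MMP10. The RefSeq table held a promoter for 39 of the 66 members, and MMP1, MMP2, MMP9, MMP12 and MMP13 were among those without an entry. The motif reads the same on both strands and does not overlap TATAAA. It stood in 4 of the 39 member promoters (10.3%), compared with 5.78% of 14905 protein-coding promoters. Among the members, 3 of the 11 promoters of genes listed in both lines held it, 0 of the 8 listed in HepG2 cells alone, 0 of the 5 listed in Huh7 cells alone, and 1 of the 15 listed in neither. The promoters of genes listed in both lines that held it were those of MMP7, MMP10 and ADAMTS12, and that of a gene in neither list was MMP20. The split by listing thus rests on 4 promoters, 3 of them from the chromosome 11 cluster, and was not tested. Of the 5 cluster promoters in the table, 3 held the AP-1 motif and 4 held TATAAA, which was searched on the sense strand and stood in 6.7% of all protein-coding promoters. Their GC content was between 33.3% and 44.3%, well below the median of 67.7% for all members. Over all protein-coding genes, 28.2% of those with an AP-1 motif were listed in HepG2 cells and 23.3% of those without it, and 25.3% and 21.2% were listed in Huh7 cells. A match describes the letters in this window and says nothing about binding.

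Among the secreted collagenases, which cut fibrillar collagen, MMP1 (ENSG00000196611) was listed in both lines and MMP13 in HepG2 cells alone, while the neutrophil collagenase MMP8 was in neither list. Of the gelatinases, MMP2 was listed in Huh7 cells and not in HepG2 cells, and MMP9 was listed in neither. The stromelysins MMP10 (ENSG00000166670) and MMP11 (ENSG00000099953) were listed in both lines, whereas MMP3 was in neither list. MMP7 (ENSG00000137673), the small matrilysin that lacks the hemopexin domain, was also listed in both, and the other matrilysin, MMP26, in neither. These groups hold only 2 or 3 genes each. The background was 23.9% in HepG2 cells, 21.9% in Huh7 cells and 11.4% for both lists.

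Of the MMPs anchored to the membrane, MMP14 (ENSG00000157227), which activates the precursor of MMP2 at the cell surface with TIMP2 as a bridge, was listed in both lines. MMP17, MMP24 and MMP25 were listed in HepG2 cells alone, of which MMP17 and MMP25 hold to the membrane by a lipid (GPI) anchor. MMP16 was listed in Huh7 cells alone, and MMP15 in neither. In all, the HepG2 list held 4 of these 6 genes (66.7%, background 23.9%) and the Huh7 list 2 (33.3%, background 21.9%). MMP23B, which is also held in the membrane, was counted with the remaining MMPs, and with it the shares were 57.1% and 42.9%. The difference between the lines was not tested. MMP14 was thus listed beside its substrate MMP2 in Huh7 cells, and without it in HepG2 cells, and TIMP2 was listed in neither. These listings give no direction, an unlisted gene may still be expressed, and a link between these genes was not tested.

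Of the remaining 7 MMPs, the epilysin gene MMP28 (ENSG00000271447) was listed in both lines. MMP12, the macrophage elastase, and MMP23B were listed in Huh7 cells alone. MMP19, MMP20, MMP21 and MMP27 were in neither list. The HepG2 list thus held 1 of these 7 genes (14.3%, background 23.9%) and the Huh7 list 3 (42.9%, background 21.9%). MMP23B shares sequence with the pseudogene MMP23A. Its transcripts were cut into all 75-base stretches, of which only 65% occurred in no transcript of another gene. Whether the shared stretches affected its listing was not tested.

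The MMP cluster on chromosome 11 holds 9 members in a row on the same strand, with no other protein-coding gene between them in GENCODE release 29. In the order of the chromosome they are MMP7, MMP20, MMP27, MMP8, MMP10, MMP1, MMP3, MMP12 and MMP13. Each list held 4 of the 9 (44.4%, background 23.9% in HepG2 cells and 21.9% in Huh7 cells), and 3 of them (MMP7, MMP10 and MMP1) were common to both lists (33.3%, background 11.4%). MMP10 and MMP1 stood side by side, while MMP20, MMP27 and MMP8, between MMP7 and MMP10, were in neither list. At the far end MMP12 was listed in Huh7 cells alone next to MMP13 in HepG2 cells alone.

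The ADAMs were divided by the zinc-binding motif of the protease domain, which, by general knowledge of the family, 12 of the 20 members keep and 8 lack. Of the 8 that lack it, ADAM11 (ENSG00000073670) and ADAM22 (ENSG00000008277) were listed in both lines and ADAM23 in HepG2 cells alone. The shares were 37.5% in HepG2 cells (background 23.9%) and 25% in Huh7 cells, near the background of 21.9%. In the brain, ADAM22 and ADAM23 bind secreted LGI proteins at synapses. The other 5 without the motif, ADAM2, ADAM7, ADAM18, ADAM29 and ADAM32, were in neither list. ADAM2 takes part in the binding of sperm and egg.

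Among the 12 ADAMs that keep the motif, each list held 4 (33.3%, background 23.9% in HepG2 cells and 21.9% in Huh7 cells), with ADAM20 (ENSG00000134007) alone in both (8.33%, background 11.4%). ADAM21, ADAM30 and ADAM33 were listed in HepG2 cells alone. In ADAM21, 84.9% of the 75-base stretches were unique, and the other gene with the most shared stretches was the pseudogene ADAM21P1. In Huh7 cells the listed genes other than ADAM20 were ADAM8, ADAM10 and ADAM28. ADAM10 is the main sheddase of Notch receptors and cleaves the amyloid precursor protein at its alpha site. ADAM17, the sheddase that releases TNF and ligands of the EGF receptor, was in neither list, nor were ADAM9, ADAM12, ADAM15 and ADAM19.

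The ADAMTS genes listed in both lines were ADAMTS3 (ENSG00000156140), ADAMTS7 (ENSG00000136378), ADAMTS8 (ENSG00000134917), ADAMTS12 (ENSG00000151388) and ADAMTS19 (ENSG00000145808). ADAMTS7 and ADAMTS12, which cleave cartilage oligomeric matrix protein (COMP), were both among them. This group holds only 2 genes, and 11.4% of all protein-coding genes were in both lists. In ADAMTS7, 92.5% of the 75-base stretches were unique, and the other gene with the most shared stretches was the pseudogene ADAMTS7P3. Of the procollagen N-propeptidases, which trim the amino end of fibrillar procollagens, ADAMTS3 was listed in both lines, ADAMTS14 in HepG2 cells alone and ADAMTS2 in Huh7 cells alone.

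Of the 7 proteases that cut aggrecan, versican and related proteoglycans, ADAMTS1, ADAMTS5, ADAMTS8 and ADAMTS9 were listed in HepG2 cells (57.1%, background 23.9%), and ADAMTS8 alone in Huh7 cells (14.3%, background 21.9%). The difference between the lines was not tested. ADAMTS4, ADAMTS15 and ADAMTS20 were in neither list. ADAMTS1 and ADAMTS5 are neighbours on chromosome 21 and were both listed in HepG2 cells alone, while ADAMTS15, the neighbour of ADAMTS8 on chromosome 11, was in neither list. ADAMTS13, the protease that cleaves von Willebrand factor and is made in liver, was listed in HepG2 cells alone. Of the 6 remaining genes, ADAMTS10 was listed in HepG2 cells, ADAMTS17 in Huh7 cells and ADAMTS19 in both. ADAMTS6, ADAMTS16 and ADAMTS18 were in neither.

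Of the inhibitors, TIMP4 (ENSG00000157150) was listed in both lines. TIMP3, which binds to the matrix and also inhibits ADAM17 and the aggrecan-cleaving ADAMTS enzymes, was listed in HepG2 cells alone. TIMP1 and TIMP2, which circulate in blood and are made by many cell types, were in neither list.

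**Figure D3:**
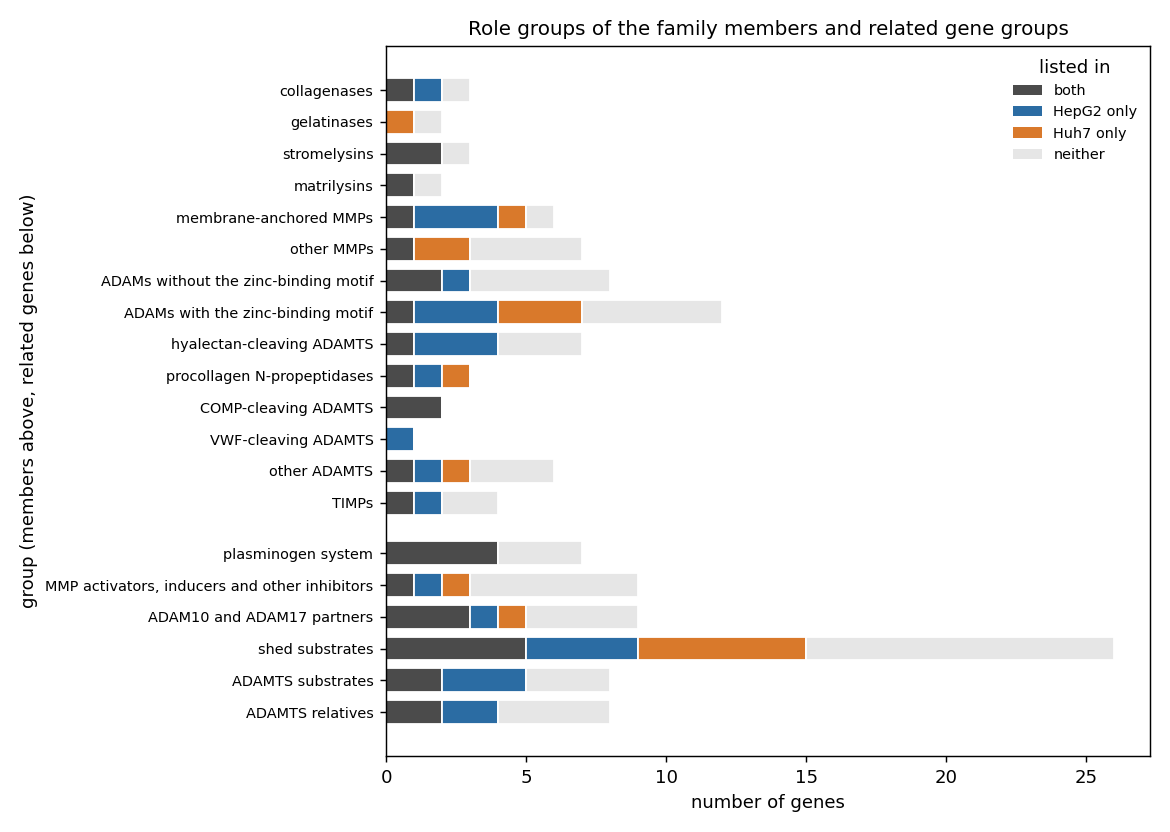
Bars give the number of genes of each role group (members in the upper part, related genes in the lower part), coloured by whether they were listed in both lines, in HepG2 cells or Huh7 cells alone, or in neither. All listed genes shown for the plasminogen system (4 of 7) were listed in both lines, whereas 3 of the 4 listed proteoglycan-cleaving (hyalectan-cleaving) ADAMTS genes were listed in HepG2 cells alone. Over all protein-coding genes, 47.7% of the HepG2 list and 52.2% of the Huh7 list were shared. The groups are small, and their overlap was not tested.

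Genes that act with these families were counted in groups by role, 67 genes in all, of which the HepG2 list held 28 (41.8%) and the Huh7 list 25 (37.3%), with 17 (25.4%) in common. The shares of all protein-coding genes, against which these groups can be read, were 23.9%, 21.9% and 11.4%, and no group was tested against them. In the plasminogen system, which activates several MMP precursors, 4 of the 7 genes counted (57.1%) were listed in both lines. They were the urokinase gene PLAU, its receptor gene PLAUR, the serine protease inhibitor SERPINE2 and the plasmin inhibitor SERPINF2. PLG, PLAT and SERPINB2 were in neither list. Of 9 activators, inducers and other inhibitors, TFPI2, a secreted protease inhibitor, was listed in both lines, the proprotein convertase PCSK5 in HepG2 cells and the plasma protease inhibitor A2M in Huh7 cells. FURIN, which activates MMP11 and MMP14, was in neither list, nor were the inducer BSG and the membrane inhibitor RECK. These 2 of 9 genes in each line (22.2%) were close to the background share.

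Of 9 partners of ADAM10 and ADAM17, 4 were listed in each line (44.4%). The tetraspanins TSPAN5 and TSPAN14, which carry ADAM10 to the cell surface, and FRMD8, which stabilises the complex of iRhom proteins with ADAM17, were listed in both. TSPAN15, another ADAM10 partner, was listed in HepG2 cells alone, and the iRhom gene RHBDF1 in Huh7 cells alone. Of 26 proteins known to be shed, the HepG2 list held 9 (34.6%) and the Huh7 list 11 (42.3%), with 5 in both. The 5 were the EGF receptor ligands HBEGF and BTC, the Notch ligand DLL4, E-cadherin (CDH1) and the interleukin receptor IL6R. EREG, NRG1, DLL1 and CDH2 were listed in HepG2 cells alone, and AREG, TGFA, EPGN, JAG1, CX3CL1 and ERBB4 in Huh7 cells alone. None of the 4 Notch receptor genes, NOTCH1 to NOTCH4, was in either list.

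Of 8 substrates of the ADAMTS enzymes, the HepG2 list held 5 (62.5%) and the Huh7 list 2 (25%). NCAN and VWF were listed in both lines, and versican (VCAN), brevican (BCAN) and decorin (DCN) in HepG2 cells alone, whereas aggrecan (ACAN), COMP and BGN were in neither list. Of 8 relatives of the ADAMTS and ADAM families, among them ADAMTS-like proteins without a protease domain, ADAMTSL1 and ADAMTSL2 were listed in both lines, and ADAMTSL3 and ADAMTSL5 in HepG2 cells alone, which came to 50% and 25% of the group.

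The GO terms of these families were read from the numbers of listed and background genes in the tables, and were set beside the share of the whole list in the background, 21.6% in HepG2 cells and 19.7% in Huh7 cells. Metalloendopeptidase activity held 43 listed genes of 125 in HepG2 cells (34.4%), of which 28 were members. In Huh7 cells it held 35 of 125 (28%), of which 23 were members. Every listed enzyme of the families stood under this term, including ADAM11, ADAM22 and ADAM23, which lack the zinc-binding motif. If all 62 enzymes are taken to belong to the term, the HepG2 list held 15 of the remaining 63 genes (23.8%) and the Huh7 list 12 of 63 (19%), close to the share of the whole list. The 7 other genes of the term listed in both lines included the tolloid-like proteases TLL1 and TLL2 and the fibroblast activation protein FAP.

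Collagen catabolic process held 15 listed genes of 44 in HepG2 cells (34.1%), with 8 members, and 17 of 44 in Huh7 cells (38.6%), with 10 members. MMP1, MMP7, MMP10, MMP11, MMP14 and ADAMTS3 stood under it in both lines. The 4 other genes listed in both were FAP and the lysosomal proteases CTSD, CTSK and CTSS. Extracellular matrix disassembly reached 19.5% in HepG2 cells (17 of 87 genes, 7 of them members) and 32.2% in Huh7 cells (28 of 87, 10 of them members). It therefore lay slightly below the whole-list share in HepG2 cells and above it in Huh7 cells. Beside the members, 7 of its genes were listed in both lines, 3 in HepG2 cells alone and 11 in Huh7 cells alone. The wider extracellular matrix organization held 133 and 137 of 367 genes (36.2% and 37.3%), of which only 10 and 12 were members, so most of its listed genes lay outside these families.

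Metalloendopeptidase inhibitor activity had the highest listed share among the 16 terms examined, at 56.2% in HepG2 cells (9 of 16 genes) and 50% in Huh7 cells (8 of 16). TIMPs made up 2 and 1 of them. The 6 other genes listed in both lines were SPOCK2, SPOCK3, FETUB, LXN, WFIKKN1 and WFIKKN2. Membrane protein ectodomain proteolysis, the shedding term, had 22% of its genes listed in HepG2 cells (11 of 50) and 14% in Huh7 cells (7 of 50), near and below the whole-list share. Its listed members were TIMP3 and TIMP4 in HepG2 cells and ADAM8, ADAM10 and TIMP4 in Huh7 cells. Proteolysis as a whole, with all listed members under it, held 309 of 1467 genes (21.1%) and 264 of 1467 (18%), also near the whole-list share. The extracellular region, where most of the members act, had 22.7% and 22.8% of its 5050 genes listed.

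**Figure D4:**
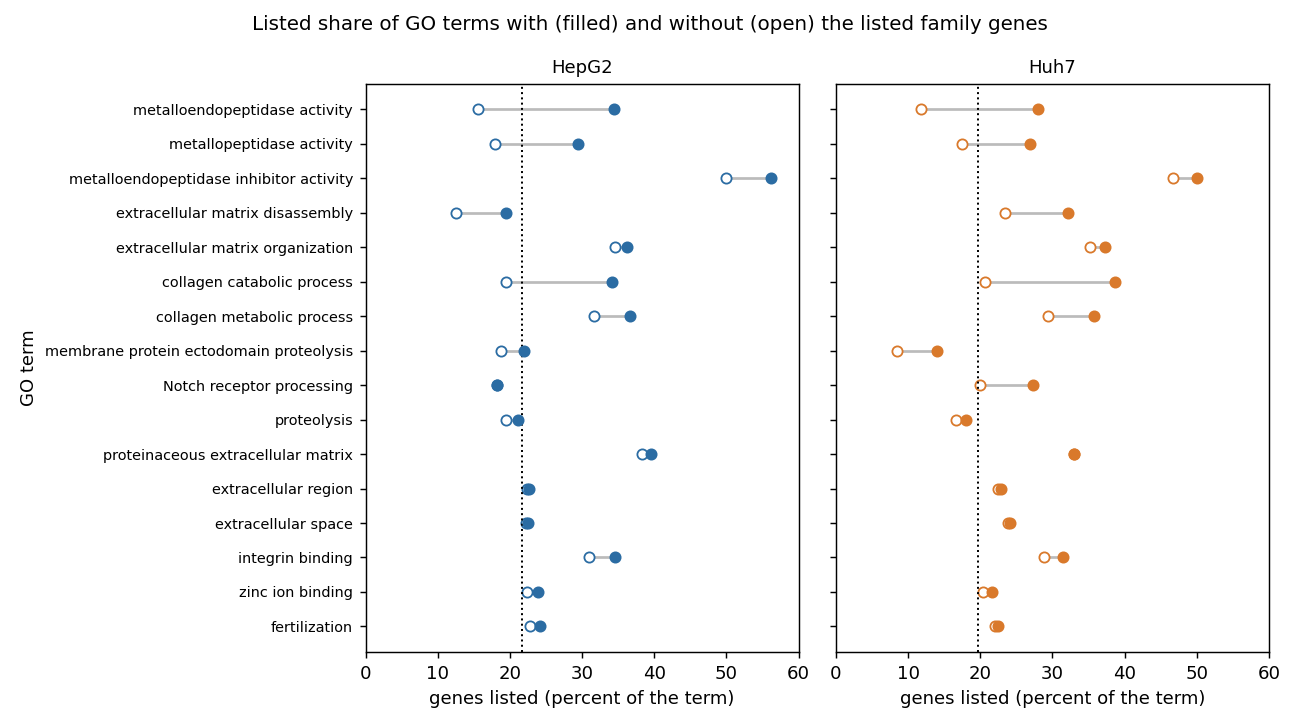
Filled points give the percent of each GO term's background genes that were listed, in HepG2 cells (left) and Huh7 cells (right), open points the same after the listed members were taken out of the term, and the dotted line the share of the whole list (21.6% and 19.7%). Metalloendopeptidase activity moves from 34.4% to 15.5% and from 28% to 11.8%, and these open points are lower limits for the rest of the term because unlisted members stay in its background.

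The KEGG tables name only the called genes of each pathway, so the pathways of unlisted members cannot be read from them. In HepG2 cells 4 of the 30 listed members stood in 9 of 279 pathways, and in Huh7 cells 6 of the 24 stood in 13 of 280. Among the pathways with a member, the listed share ran from 16.2% (MicroRNAs in cancer) to 32.1% (Pathways in cancer) in HepG2 cells (background 23.9%). In Huh7 cells it ran from 14.8% (MicroRNAs in cancer) to 37.4% (Rheumatoid arthritis), with a background of 21.9%. These shares were not tested. MMP1 was placed in Pathways in cancer, Rheumatoid arthritis, Bladder cancer and PPAR signaling pathway in both lines, MMP7 in Wnt signaling pathway, and MMP14 in TNF signaling pathway and GnRH signaling pathway. MMP2 stood in 6 pathways in Huh7 cells, and joined MMP1 in Pathways in cancer and Bladder cancer and MMP14 in GnRH signaling pathway. TIMP3 stood in Proteoglycans in cancer and MicroRNAs in cancer in HepG2 cells, where Huh7 cells had MMP2 and MMP16, respectively. ADAM10 stood in Alzheimer's disease and in Epithelial cell signaling in Helicobacter pylori infection in Huh7 cells. None of the listed ADAMTS genes stood in a pathway of these tables. How many listed genes of any kind stood in a pathway was not counted. The number of members placed and the absence of ADAMTS genes therefore cannot be judged against it.

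The coding length of the members had a median of 2326.5 bases against 1284 bases for all protein-coding genes. Among the members it was 2325 bases for those listed in at least 1 line and 2328 bases for those in neither. Within the families the medians of listed and unlisted genes were 1513.5 and 1524 bases for MMPs, 2349 and 2458.5 for ADAMs, and 3633 and 3507 for ADAMTS genes. Listed and unlisted members thus had similar coding lengths. Among protein-coding genes within the range of the members, 621 to 5805 bases, the HepG2 list held 24.5% and the Huh7 list 22.6%.

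Other protein-coding genes overlap 15 of the 66 members in GENCODE release 29. Of these 15, 8 were listed in at least 1 line, as were 39 of all 66 members and 6852 of all 19951 protein-coding genes. The 51 members that overlap no other protein-coding gene were listed at 45.1% in HepG2 cells and 37.3% in Huh7 cells. The libraries kept the strand, but whether strand was used in counting is not given in the sources used here.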

How the data were processed

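RNA was depleted of ribosomal RNA and sequenced as stranded libraries, 1 in each of 4 groups, so no value has a replicate error. Per the labels and the methods, the authors used Bowtie2 2.2.8, HISAT2, StringTie 1.3.1 and Cuffdiff 2.1.1, and called mRNAs at an adjusted p-value under 0.05, although edgeR is also named in the study's text for this step. The genome build and annotation are not given in the sources used here. The authors deposited, for each comparison, a GO table (GOseq) and a KEGG table (KOBAS) with numbers of listed and background genes, gene identifiers and p-values. These p-values are the authors' own results and were not used.

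Lists were rebuilt as the union of identifiers under all GO terms, and their sizes (4783 and 4369 genes) equalled those in the tables. The paper reports a larger number of differentially expressed mRNAs for each comparison, so some called genes are not in these lists. Symbols, gene types and coding lengths came from GENCODE release 29, and all 66 members had the same symbol in a further gene table. Another 8 genes matched the symbol pattern but were not protein-coding and were left out. Promoters came from RefSeq. Protein sequences were not used here, so the ADAMs were divided by textbook knowledge of the zinc-binding motif, in place of the planned motif search. Stretches of 75 bases were compared over all GENCODE transcripts on the same strand. Counting was tested on simulated tables. Scripts ran in Python 3.11.15. All members are named with their listing, and those listed in both lines, the TIMPs, ADAM10, ADAM17, MMP2, MMP9 and MMP14 are described in more detail. Of the related genes planned for counting, 1 is not reported here and was left out of the counts. The members and gene lists were chosen with earlier results of these data known.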

Additional observations from a re-analysis of the deposited data

How the results depend on the processing

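No paired analysis was possible because the deposited results hold no value per sample. Each group also has only 1 library. The counts of listed members, 30, 24 and 15, could not change when a gene had to stand under at least 2 or at least 10 GO terms or when the KEGG tables were read too, since each listed member stood under at least 21 GO terms and 0 stood in the KEGG tables alone. They were 34, 26 and 17 of 73 genes with ADAMTSL genes, ADAMDEC1 and PAPLN. With only the 39 members listed in at least 1 line as the denominator, the shares rose to 76.9% in HepG2 cells and 61.5% in Huh7 cells, because fewer genes were counted. On the same denominator all protein-coding genes reached 69.6% and 63.6%, so the Huh7 members lay below their background there. Leaving out each family in turn gave 40.4% to 50% in HepG2 cells and 32.6% to 39.1% in Huh7 cells, and this alternative, that of members without an overlapping gene and that of MMP23B among the membrane-anchored MMPs were chosen after seeing the data. The background share was between 21.6% and 24.5% in HepG2 cells and between 19.7% and 22.8% in Huh7 cells over the other backgrounds tried, below the share of all 66 members in each. The planned background by protein length was not run, and coding length was used in its place. When listed members were taken out of the GO terms, HepG2 values moved to 15.5% for metalloendopeptidase activity, 17.9% for metallopeptidase activity, 12.5% for extracellular matrix disassembly and 19.4% for collagen catabolic process. In Huh7 cells they moved to 11.8%, 17.4% and 20.6% for metalloendopeptidase activity, metallopeptidase activity and collagen catabolic process. Membrane protein ectodomain proteolysis in Huh7 cells, with 50 genes, went from 14% to 8.51%. This lowers every term with a listed member by construction, since unlisted members could not be taken out. Of the 16 terms, 13 in HepG2 cells and 14 in Huh7 cells lay above the whole-list share, and 9 and 12 did without the listed members.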

Other observations

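Markers of other cell types were also listed in these cell lines. Of 5 stromal, endothelial and blood cell markers, PDGFRB, PECAM1, VWF and PTPRC were listed in both lines (80%, against 11.4% of all protein-coding genes) and COL1A1 in neither. Of 6 hepatocyte markers, ALB, AFP and HNF4A were listed in both lines, APOA1 and TTR in Huh7 cells alone and TF in neither, so that the HepG2 list held 50% of them (background 23.9%) and the Huh7 list 83.3% (background 21.9%). The marker shares were above those of the protease and inhibitor genes (45.5% and 36.4%), but they rest on sets of only 5 and 6 genes. In HepG2 cells the hepatocyte share of 50% was 3 of 6 genes, close to the 45.5% of the 66 members. The differences were not tested. The level of each marker is not in the tables, and its part in the listing of the protease genes was not tested.

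Of the TIMP genes, 3 lie inside synapsin genes on the opposite strand. SYN2 and TIMP4, which lies inside it, were both listed in both lines. SYN3 was listed in Huh7 cells alone, whereas TIMP3 inside it was listed in HepG2 cells alone, and SYN1 was listed in Huh7 cells alone, with TIMP1 in neither list.

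Members that stand next to each other among protein-coding genes formed 14 pairs, and in 7 of them (50%) both genes had the same listing, near the 49.3% of all adjacent protein-coding pairs. ADAMTS1 and ADAMTS5 were listed in HepG2 cells alone, and MMP10 and MMP1 in both lines. The other pairs with the same listing were in neither list and lay in the run of MMP20, MMP27 and MMP8 and in the run of ADAM9, ADAM32, ADAM18 and ADAM2, so these pairs share genes.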
